A study of Mus musculus with 27 samples.

Results

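T and NK cell genes were followed here in mouse bone marrow exposed to Flt3 ligand (Flt3-L), a growth factor for dendritic cells, with and without cyclosporin A (CsA). The 10 genes, out of 19935 measured, were Cd3d, Cd3e, Cd3g, Cd28, Ncr1, Klrk1, Il2rb, Gzma, Gzmb and Eomes. A gene was taken from probe sets that the platform annotation gives to its symbol and to no other gene. Where several qualified, the brightest over the 27 arrays was to be used, but each of the 10 genes had exactly 1 such probe set. Marrow from the leg bones of C57BL/6 mice aged 8 to 12 weeks was used, and all groups shared this strain and age. Flt3-L with CsA was given for 12 h, 24 h, 48 h or 11 d, Flt3-L alone was given for the same times, and unstimulated marrow served as the start. Flt3-L was used at about 200 ng/ml and came from transfected B16 tumour cells. CsA was used at 2 µg/ml, was added 30 min ahead of Flt3-L and stayed in the medium. Each of the 9 groups had 3 arrays, described as biological replicates, and whether marrow of several animals was pooled is not given in the sources used here. The labels leave unsaid whether the unstimulated marrow had itself been cultured. Effects of Flt3-L and of time in culture cannot be told apart.

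CD3 delta, epsilon and gamma chains sit beside the T cell receptor and carry its signal into the cell, and CD28 adds the second, costimulatory signal that full T cell activation needs. NK cells kill without that receptor: NKp46 (Ncr1) and NKG2D (Klrk1) recognise stressed or infected cells, Il2rb encodes the receptor chain through which IL-2 and IL-15 act, and granzymes are the proteases released into the target. Cyclosporin A blocks calcineurin, the phosphatase that sends NFAT transcription factors to the nucleus after T cell receptor signalling. Mature T and NK cells are minor populations of marrow.

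Signals are linear probe set intensities, normalized across arrays by the authors, and they ran from 5.2 to 18180.7 with array medians of 114.2 to 124.8. Arrays of a group correlated at 0.9964 or more over all probe sets, and for 25 of 27 arrays the nearest other array was from the same group. For CsA array 3 at 12 h and again at 24 h it was Flt3-L array 3 of that time. Differences are log2 changes ± SE from 1 limma model over the 27 arrays (n = 3 arrays per group), and "called" means an adjusted p below 0.05 over all 19935 genes. Arrays give no counting depth, so their number limits the precision. Probe sets of 1027 smell receptor genes had a median signal of 19.3, with 8.64 and 71.4 as 5th and 95th percentiles. With CsA at 11 d, every array of Cd3d, Cd3g, Ncr1, Il2rb, Gzma, Gzmb and Eomes lay within that range. The files give no detection measure, so whether low signals lay above background was not tested, and folds of such genes are folds of signal that may understate a change. Probe sets differ in affinity, so no gene's level was set against that of another.

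One array stood apart on these genes, Flt3-L array 3 at 11 d. Against the mean of the other 2 arrays of its group it was 2.20-fold higher for Ncr1, 1.78-fold higher for Gzmb, 1.77-fold higher for Cd3g and 1.64-fold higher for Il2rb. Over all genes, 9 of 19935 (0.0451%) were more than 2-fold higher on it, and the median difference was 0.0050 log2. Besides Ncr1, these included Naaa, Dcn, Iigp1, Cxcl9, Xlr, Nkg7 and Dnase1l3, named after their values were seen. It lay above both other arrays for 6 of the 10 genes, beside 34.8% of all genes. This was not particular to the 10. On the lists read below, it held for all 12 genes of the IL-2 and IL-15 system and 6 of 9 B lineage markers. It held for 7 of 13 cytotoxic genes, but for 5 of 14 T cell surface proteins and 3 of 8 plasmacytoid dendritic cell markers, near the share of all genes. Changes at 11 d are therefore also given without it.

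Of the 10 genes, 8 have a promoter sequence in the RefSeq table used (build GRCm38.p6), 300 bases each from 250 before to 50 after the gene's start. These 5 are shown for contrasts among the members: Ncr1 and Gzma were called lower after 12 h and Gzmb was not, and Cd3g was called lower with CsA at 11 d while its neighbour Cd3d was not. Capitals mark 4 short motifs searched on both strands: GGAAAA (the core letters bound by NFAT), GGTGTGA (T-box factors such as Eomes), TGTGGT (RUNX factors) and AGGAAG (ETS factors). No 2 matches shown overlap.
Ncr1, chr7:4337465-4337764, plus strand: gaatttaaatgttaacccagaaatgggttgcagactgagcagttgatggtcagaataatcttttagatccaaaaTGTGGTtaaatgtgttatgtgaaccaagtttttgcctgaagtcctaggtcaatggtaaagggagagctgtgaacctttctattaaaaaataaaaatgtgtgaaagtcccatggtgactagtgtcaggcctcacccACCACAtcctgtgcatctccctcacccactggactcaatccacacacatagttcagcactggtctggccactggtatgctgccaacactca
Gzmb, chr14:56262285-56262584, minus strand: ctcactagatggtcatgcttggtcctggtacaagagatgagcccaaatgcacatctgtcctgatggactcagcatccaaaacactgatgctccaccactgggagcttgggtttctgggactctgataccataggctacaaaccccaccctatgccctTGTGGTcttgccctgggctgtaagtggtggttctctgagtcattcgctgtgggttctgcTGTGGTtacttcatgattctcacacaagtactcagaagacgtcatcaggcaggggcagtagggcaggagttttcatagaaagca
Gzma, chr13:113100932-113101231, minus strand: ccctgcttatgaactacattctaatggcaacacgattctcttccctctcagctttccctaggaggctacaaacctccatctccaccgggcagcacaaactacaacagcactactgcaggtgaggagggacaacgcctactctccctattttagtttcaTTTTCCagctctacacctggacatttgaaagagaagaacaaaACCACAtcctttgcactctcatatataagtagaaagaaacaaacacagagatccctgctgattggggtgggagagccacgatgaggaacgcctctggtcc
Cd3g, chr9:44980382-44980681, minus strand: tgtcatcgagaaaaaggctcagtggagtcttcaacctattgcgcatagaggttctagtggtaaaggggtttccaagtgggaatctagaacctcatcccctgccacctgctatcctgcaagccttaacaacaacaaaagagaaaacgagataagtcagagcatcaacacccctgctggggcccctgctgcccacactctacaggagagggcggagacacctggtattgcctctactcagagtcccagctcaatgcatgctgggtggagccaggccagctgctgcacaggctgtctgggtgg
Cd3d, chr9:44981536-44981835, plus strand: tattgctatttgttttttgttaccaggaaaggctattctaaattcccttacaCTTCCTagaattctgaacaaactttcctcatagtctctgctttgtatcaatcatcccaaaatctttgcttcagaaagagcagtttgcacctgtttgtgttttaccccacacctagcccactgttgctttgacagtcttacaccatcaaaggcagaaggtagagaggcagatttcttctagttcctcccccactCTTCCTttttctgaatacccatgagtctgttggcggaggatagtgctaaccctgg
The RUNX letters were found in 4 of the 8 promoters (Ncr1, Klrk1, Gzma and Gzmb), against 16.9% of 27025 mouse promoters of this length. In Ncr1 they begin 176 and 41 bases ahead of the start, in Gzmb 93 and 34, in Gzma 50 and in Klrk1 129. The ETS letters were in Cd3d and Cd3e, 2 of 8, against 35.1% of all promoters. The NFAT letters were in Gzma alone, 1 of 8 against 23.6%, and the T-box letters in none of the 8 against 3.96%. These matches are descriptions of letters in a window, not of binding sites.

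Culture with Flt3-L was compared with unstimulated marrow to describe the cultures in which CsA was tested. Most of the genes fell and Cd28 rose, so the 10 do not move as 1 group. After 12 h, 1 gene was called higher and 5 lower, 6 of 10, beside 36.0% of all genes called (17.8% higher, 18.1% lower). After 24 h it was 1 higher and 9 lower, all 10, beside 35.6% (17.9% higher, 17.7% lower). After 48 h, 1 was higher and 8 lower, beside 37.1% (18.5% higher, 18.6% lower), and after 11 d 1 was higher and 7 lower, beside 51.9% (27.2% higher, 24.8% lower). The median change of the 10 was -0.44, -0.84, -1.18 and -1.19 log2 at the 4 times, while that of all genes was 0.05, 0.04, 0.01 and 0.02. All arrays with Flt3-L lay above all unstimulated arrays for 1 gene, Cd28, at each time, beside 28.7%, 25.3%, 22.4% and 29.8% of all genes at the 4 times. They lay below for 6, 9, 9 and 7 genes, beside 21.3%, 20.5%, 21.8% and 26.7% of all genes. These 4 comparisons share the 3 unstimulated arrays. In bulk RNA, fewer cells of a type and less RNA per cell cannot be told apart, and this holds for every fall below.

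CsA was compared with Flt3-L alone at each time. At 12 h, 24 h and 48 h 1 of the 10 genes was called each time, Cd28, which was higher. This stood beside 6.73% of all genes called at 12 h (2.82% higher, 3.91% lower), 3.78% at 24 h (1.60% higher, 2.19% lower) and 4.51% at 48 h (2.17% higher, 2.35% lower). At 11 d 6 were called, Cd28 higher and Cd3g, Il2rb, Gzmb, Ncr1 and Klrk1 lower, beside 12.0% of all genes (4.92% higher, 7.08% lower). All CsA arrays lay above all Flt3-L arrays for 2 genes at 12 h (Cd28 and Il2rb), beside 12.0% of all genes, and for 2 at 24 h (Cd28 and Ncr1), beside 7.41%. At 48 h and 11 d this held for Cd28, beside 11.7% and 17.2% of all genes. All CsA arrays lay below for none of the 10 at 12 h or 24 h, beside 16.3% and 9.19% of all genes, for 1 at 48 h (Cd3d), beside 7.45%, and for the 5 called lower at 11 d, beside 12.6%. The median change of the 10 was 0.10, -0.02, -0.06 and -0.36 log2 at the 4 times, while that of all genes was -0.04, -0.01, 0.02 and 0.03. Averaged over the 4 times, Cd28 was called higher and Cd3g lower, with and without Flt3-L array 3 of 11 d, 2 of 10, beside 16.0% of all genes (7.76% higher, 8.22% lower). The split of all calls at 12 h depended on scaling: 562 higher and 779 lower as normalized by the authors, but 1052 higher and 323 lower after each array's median was subtracted. No call of the 10 genes changed with that scaling. Because the 11 d comparison of CsA, that of Flt3-L with unstimulated marrow and that of 11 d with 48 h use the same 3 Flt3-L arrays, their values are given side by side and were not related to each other.

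**Figure D1:**
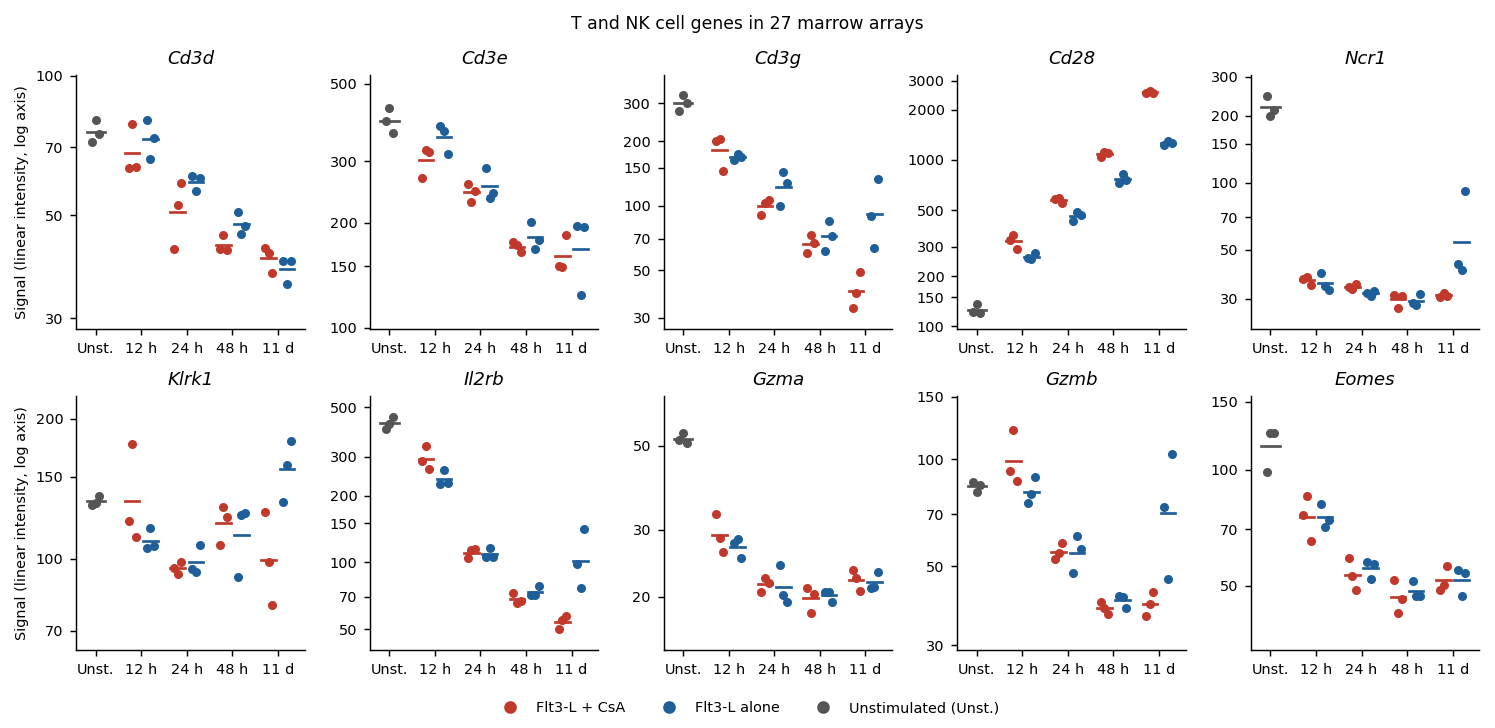
Signals of the 10 genes (linear intensity on a log axis) by time, each point an array and each bar the geometric mean of 3 arrays, with Flt3-L plus CsA left of Flt3-L alone and unstimulated marrow at the start of the axis. Cd28 alone climbs through all times, highest in the CsA arrays of 11 d (2532.9 to 2609.0).

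**Figure D2:**
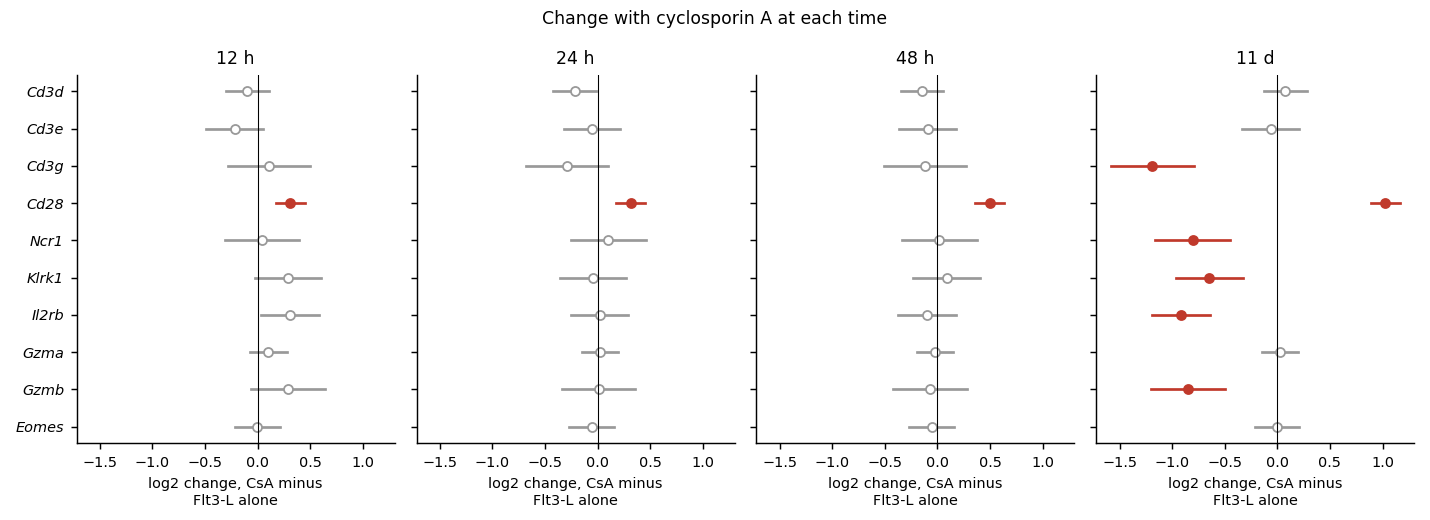
Log2 change with CsA against Flt3-L alone for each gene at each time, with bars for the 95% interval of the fit and filled points for called genes. Cd28 is filled at all 4 times, to the right of 0, and the other 5 filled points are at 11 d, to the left.

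The CD3 chains fell during culture, most of all Cd3g. Their genes lie together on chromosome 9 (GRCm38.p6), Cd3g at 44969572-44980431, Cd3d at 44981769-44987052 and Cd3e at 44998735-45009663. Cd3g and Cd3d lie head to head with 1337 bases between them, and 11682 bases separate Cd3d from Cd3e. Cd3g, the gamma chain, read 274.9, 327.0 and 300.1 in unstimulated marrow. With Flt3-L alone it read 163.3, 174.2 and 168.1 at 12 h, 99.1, 143.4 and 127.5 at 24 h, 61.5, 84.4 and 72.3 at 48 h, and 89.2, 63.4 and 133.1 at 11 d. Every Flt3-L array at every time lay below every unstimulated array. The change was -0.83 at 12 h, -1.30 at 24 h, -2.06 at 48 h and -1.72 ± 0.19 at 11 d (adjusted p = 1.66e-08, 3.30-fold lower). The 11 d change was called without Flt3-L array 3 too (adjusted p = 4.37e-10).

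With CsA, Cd3g read 200.4, 204.5 and 145.6 at 12 h, 90.8, 102.5 and 106.5 at 24 h, and 60.4, 72.6 and 66.9 at 48 h. At each of these times the CsA arrays overlapped the Flt3-L arrays, and the 95% interval of the change reached from -0.29 to 0.50 at 12 h, from -0.68 to 0.10 at 24 h and from -0.51 to 0.27 at 48 h. At 11 d CsA arrays read 33.1, 39.0 and 49.1, against 89.2, 63.4 and 133.1 with Flt3-L alone, and the groups did not overlap. Cd3g fell 2.28-fold with CsA (-1.19 ± 0.19, adjusted p = 5.64e-05). Without Flt3-L array 3 the change was -0.92 (adjusted p = 0.000693), and over the 15 alternatives tried adjusted p ran from 2.77e-06 to 0.0153.

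Cd3e and Cd3d also fell, but neither was called at 12 h. Cd3e, the epsilon chain, read between 361.2 and 424.9 in unstimulated marrow, 315.2 to 378.7 with Flt3-L at 12 h, 235.7 to 286.6 at 24 h, 168.6 to 200.8 at 48 h, and 123.9 to 196.2 at 11 d. It was -0.62 at 24 h, -1.10 at 48 h and -1.22 ± 0.13 at 11 d (adjusted p = 8.25e-09), with no overlap with unstimulated arrays at these 3 times. Cd3d, the delta chain, read 72.0 to 80.4 in unstimulated marrow, 66.1 to 80.1 at 12 h, 56.3 to 60.7 at 24 h, 45.6 to 50.8 at 48 h and 35.5 to 39.9 at 11 d. Its change was -0.36 at 24 h, -0.66 at 48 h and -0.98 ± 0.10 at 11 d (adjusted p = 2.74e-09).

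Neither gene was called with CsA at any time. At 11 d Cd3e read 150.3, 149.7 and 183.9 with CsA, against 196.2, 123.9 and 194.8 with Flt3-L alone. The groups overlapped, and the interval of the change ran from -0.33 to 0.20. Cd3d read 42.5, 41.4 and 37.5 with CsA at 11 d, against 39.9, 35.5 and 39.8 with Flt3-L alone, also overlapping, with an interval from -0.13 to 0.28. For Cd3g the interval at 11 d was -1.58 to -0.80, which does not meet that of either neighbour. The difference between the 3 genes was not itself tested. From 24 h on all Cd3d arrays lay within the smell receptor range, as did the Cd3g arrays with CsA at 11 d. An uncalled difference of Cd3d thus does not show equal expression.

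Cd28, on chromosome 1 (60746388-60773359), encodes the costimulatory receptor that binds CD80 and CD86. It was called higher at every step of culture, the only one of the 10 genes with that course. It read 121.4, 135.5 and 120.0 in unstimulated marrow. With Flt3-L alone it read 255.9, 252.9 and 274.7 at 12 h, 432.3, 488.2 and 465.4 at 24 h, 728.7, 824.4 and 762.1 at 48 h, and 1221.9, 1294.3 and 1255.8 at 11 d. No array of any time overlapped an array of another time. The rise over unstimulated marrow was 2.08-fold at 12 h, 3.68-fold at 24 h, 6.14-fold at 48 h and 10.0-fold at 11 d (3.32 ± 0.07 log2, adjusted p = 4.3e-23).

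CsA raised Cd28 further at all 4 times. It read 331.2, 353.1 and 290.7 with CsA at 12 h, against 255.9, 252.9 and 274.7 with Flt3-L alone. At 24 h it read 580.3, 591.9 and 550.5 with CsA, against 432.3, 488.2 and 465.4 with Flt3-L alone. At 48 h the CsA arrays read 1039.9, 1122.4 and 1098.9, against 728.7, 824.4 and 762.1 with Flt3-L alone. At none of these times did the groups overlap. At 11 d the CsA arrays read 2532.9, 2609.0 and 2540.9, against 1221.9, 1294.3 and 1255.8 with Flt3-L alone, the widest gap of the 4. The rise was 1.24-fold at 12 h (adjusted p = 0.00811), 1.24-fold at 24 h (0.00572), 1.41-fold at 48 h (3.52e-05) and 2.04-fold at 11 d (1.03 ± 0.07 log2, adjusted p = 3.68e-11). The calls at 12 h and 24 h each rested on single arrays. Without CsA array 2 the 12 h change was 0.25 (adjusted p = 0.0728), and with only the 2 groups compared it was not called (0.0994). Without Flt3-L array 1 the 24 h change was 0.27 (adjusted p = 0.0545). Over all 15 alternatives adjusted p ran from 0.000436 to 0.0994 at 12 h and from 0.00128 to 0.0545 at 24 h, while at 48 h and 11 d every alternative kept the call.

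Ranked by geometric mean, the 9 groups of Cd28 ran 2561 (CsA, 11 d), 1257 (Flt3-L, 11 d), 1087 (CsA, 48 h), 771 (Flt3-L, 48 h), 574 (CsA, 24 h), 461 (Flt3-L, 24 h), 324 (CsA, 12 h), 261 (Flt3-L, 12 h) and 125 (unstimulated). All 8 neighbouring pairs in this order were separate, array by array. Among the other 9 genes, Il2rb had 4 separate neighbouring pairs, Cd3g and Ncr1 had 3 each, and the remaining 6 had 1 or 2, so most of their ranks do not differ beyond the spread of arrays.

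Ncr1, on chromosome 7 (4337715-4345184), encodes NKp46, the receptor that marks NK cells and some innate lymphoid cells. It was called lower already at 12 h. It read 245.6, 200.3 and 213.5 in unstimulated marrow, and with Flt3-L alone 39.2, 34.4 and 33.0 at 12 h. At 24 h it read 31.9, 31.0 and 32.5, at 48 h 28.7, 28.2 and 31.7, and at 11 d 43.2, 40.5 and 92.1. All arrays with Flt3-L lay below all unstimulated arrays, and the 11 d arrays lay above those of 48 h. The 12 h to 48 h signals lay within the smell receptor range, and whether they lay above background was not tested, so the folds against unstimulated marrow may understate the fall. The change against unstimulated marrow was -2.63 ± 0.17 at 12 h (6.18-fold lower, adjusted p = 7.94e-12), -2.78 at 24 h, -2.89 at 48 h and -2.01 at 11 d (-2.39 without Flt3-L array 3).

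With CsA, Ncr1 read 37.0, 37.6 and 34.8 at 12 h, 34.0, 33.3 and 35.1 at 24 h, 31.4, 27.4 and 30.9 at 48 h, and 30.5, 31.9 and 31.1 at 11 d. Its 12 arrays with CsA thus stayed between 27.4 and 37.6. The groups did not overlap at 11 d, where Ncr1 was 1.75-fold lower with CsA (-0.80 ± 0.17, adjusted p = 0.00169). Flt3-L array 3 carried much of this difference: without it the change was -0.42 (adjusted p = 0.000721). With only the 2 groups of 11 d in the fit the call was lost (adjusted p = 0.0993, the highest of 14 alternatives, the lowest being 0.000132). At 12 h, 24 h and 48 h the intervals were -0.31 to 0.40, -0.25 to 0.46 and -0.34 to 0.37.

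Klrk1, on chromosome 6 (129610323-129623903), encodes NKG2D, an activating receptor of NK cells and CD8 T cells whose ligands appear on stressed cells. It changed least over culture. It read 130.7, 131.6 and 136.2 in unstimulated marrow, 105.6, 116.3 and 106.5 with Flt3-L at 12 h, 95.0, 93.8 and 107.2 at 24 h, 91.4, 124.5 and 125.2 at 48 h, and 132.5, 159.0 and 179.5 at 11 d. It was called against unstimulated marrow at 24 h only (-0.43 ± 0.15, adjusted p = 0.0292), and that call was lost without any of 5 of the 6 arrays (adjusted p up to 0.0882). Its levels at 12 h and 48 h also lay below all unstimulated arrays, without a call in this fit. With only the groups compared, the 12 h change of -0.28 was called (adjusted p = 0.00367, the alternatives reaching 0.298).

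With CsA at 11 d Klrk1 read 126.1, 98.4 and 79.4, against 132.5, 159.0 and 179.5 with Flt3-L alone. The groups did not overlap, but CsA array 1 lay close to Flt3-L array 1. Klrk1 was 1.57-fold lower with CsA (-0.65 ± 0.15, adjusted p = 0.00446). Without CsA array 3 the change was -0.48 and not called (adjusted p = 0.0555), and without Flt3-L array 3 it was -0.54 (0.0397), the alternatives running from 0.000596 to 0.0555. At 12 h CsA array 2 read 176.4 while the other 2 CsA arrays read 120.7 and 111.6, against 105.6, 116.3 and 106.5 with Flt3-L alone, and the interval ran from -0.03 to 0.60. Over the 9 groups only 1 of 8 neighbouring pairs of Klrk1 levels was separate.

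Il2rb, on chromosome 15 (78479256-78511621), encodes the beta chain shared by the IL-2 and IL-15 receptors, and NK cells depend on IL-15. It read 401.2, 420.3 and 452.4 in unstimulated marrow. With Flt3-L alone it read 225.1, 260.0 and 228.2 at 12 h, 106.1, 116.5 and 105.7 at 24 h, 71.1, 71.2 and 78.1 at 48 h, and 97.9, 76.3 and 141.8 at 11 d. It fell stepwise through the first 48 h with no overlap between successive times. The change was -0.84 at 12 h, -1.96 at 24 h, -2.53 ± 0.13 at 48 h (5.78-fold lower, adjusted p = 2.83e-14) and -2.06 at 11 d (-2.29 without Flt3-L array 3).

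With CsA, Il2rb read 287.1, 334.8 and 262.9 at 12 h, against 225.1, 260.0 and 228.2 with Flt3-L alone. These groups did not overlap, but the gene was not called (interval 0.03 to 0.58), unlike in the fit with array weights (0.29, adjusted p = 0.0358). At 24 h and 48 h its intervals were -0.25 to 0.29 and -0.37 to 0.17. At 11 d it read 50.1, 55.2 and 57.0 with CsA, against 97.9, 76.3 and 141.8 with Flt3-L alone, without overlap. It was 1.89-fold lower with CsA (-0.92 ± 0.13, adjusted p = 1.37e-05), and -0.68 (3.37e-05) without Flt3-L array 3. Every one of the 15 alternatives kept this call, the highest adjusted p being 0.0153.

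Granzyme A, a tryptase that with perforin kills target cells, was called lower than in unstimulated marrow at all 4 times. Gzma, on chromosome 13 (113093824-113100981), read 51.6, 54.1 and 50.7 in unstimulated marrow and 27.8, 28.4 and 25.3 with Flt3-L at 12 h. All later Flt3-L arrays lay between 19.4 and 24.3. The change was -0.94 ± 0.08 at 12 h (1.92-fold lower, adjusted p = 1.74e-09), -1.30 at 24 h, -1.37 at 48 h and -1.25 at 11 d. All its cultured arrays, with CsA or without, lay within the range of the smell receptor probe sets, and whether they lay above background was not tested, so an uncalled difference does not show equal expression. CsA made no called difference at any time in this fit, while with array weights Gzma was called higher with CsA at 12 h (0.22, adjusted p = 0.0302, the alternatives reaching 0.942). At 11 d Gzma read 23.5, 22.4 and 20.8 with CsA, against 21.1, 21.2 and 23.3 with Flt3-L alone, with an interval from -0.15 to 0.20.

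Granzyme B, which cleaves caspases in the target cell, fell later. Gzmb, on chromosome 14 (56258836-56262334), read 86.1, 81.0 and 84.7 in unstimulated marrow. With Flt3-L alone it read 75.5, 79.7 and 88.9 at 12 h, 47.8, 60.9 and 55.9 at 24 h, 41.2, 41.1 and 38.2 at 48 h, and 73.4, 46.1 and 103.8 at 11 d. The 12 h and 11 d arrays overlapped the unstimulated ones, while those of 24 h and 48 h lay below them. Gzmb changed by -0.62 ± 0.17 at 24 h (adjusted p = 0.00460) and -1.06 ± 0.17 at 48 h (1.02e-05). At 11 d it was not called (-0.25, adjusted p = 0.237), but without Flt3-L array 3 it was (-0.53, 0.00258), the highest adjusted p over the alternatives being 0.765.

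With CsA, Gzmb read 92.6, 120.8 and 87.1 at 12 h, 52.4, 54.7 and 58.0 at 24 h, and 39.6, 38.3 and 36.8 at 48 h, each overlapping Flt3-L alone. At 11 d it read 36.3, 39.1 and 42.3 with CsA, against 73.4, 46.1 and 103.8 with Flt3-L alone, and the groups did not overlap. Gzmb was 1.80-fold lower with CsA (-0.85 ± 0.17, adjusted p = 0.000766). The change was -0.57 (0.00804) without Flt3-L array 3, and with only the 2 groups of 11 d in the fit it was not called (0.0607, the lowest over the alternatives being 4.76e-07). The 3 Flt3-L arrays of 11 d spread far more than the CsA arrays, and for Gzmb, Cd3g, Il2rb and Ncr1 array 3 was highest, array 1 next and array 2 lowest.

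Eomes, on chromosome 9 (118478186-118486132), encodes the T-box factor that NK cells and memory CD8 T cells need. It read 98.5, 124.4 and 124.3 in unstimulated marrow, 81.6, 71.1 and 73.9 with Flt3-L at 12 h, 57.7, 52.2 and 56.9 at 24 h, 51.5, 46.9 and 47.1 at 48 h, and 54.8, 47.0 and 54.0 at 11 d. All Flt3-L arrays lay below all unstimulated arrays. Eomes changed by -0.61 ± 0.10 at 12 h (1.53-fold lower, adjusted p = 3.29e-05), -1.05 at 24 h, -1.25 at 48 h and -1.15 at 11 d. At 11 d it read 48.8, 50.2 and 56.2 with CsA, against 54.8, 47.0 and 54.0 with Flt3-L alone, which overlap, and the interval was -0.22 to 0.21. It was not called with CsA at any time. From 24 h on all its arrays, with CsA or without, lay within the smell receptor range, so this does not show equal expression.

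Successive times of Flt3-L culture were also compared, each step sharing arrays with the next. At 24 h against 12 h, 1 gene was higher and 6 lower, 7 of 10, beside 11.1% of all genes (5.59% higher, 5.52% lower). Il2rb fell most in that step (-1.12 ± 0.13, adjusted p = 9.47e-07), and Cd28 rose by 0.82. Of the smaller falls, Cd3d, Cd3e and Gzmb each lost their call under 4 or more alternatives, with adjusted p up to 0.232, 0.0906 and 0.127. At 48 h against 24 h, 1 was higher and 4 lower, beside 17.1% (9.71% higher, 7.43% lower). Here Cd3g fell most (-0.76 ± 0.19, adjusted p = 0.00599), then Il2rb (-0.57), Cd3e (-0.48) and Cd3d (-0.30), and Cd28 rose by 0.74. The call on Cd3d was lost in 5 of 14 alternatives (adjusted p up to 0.122) and that on Cd3e in 2 of 15 (up to 0.0736). At 11 d against 48 h, 5 were higher and 1 lower, beside 43.0% (24.2% higher, 18.8% lower). The 5 were Ncr1 (0.88 ± 0.17, adjusted p = 0.000117), Gzmb (0.81 ± 0.17, 0.000241), Cd28 (0.71 ± 0.07, 2.28e-09), Il2rb (0.47 ± 0.13, 0.00432) and Klrk1 (0.47 ± 0.15, 0.0140). Cd3d was lower (-0.32 ± 0.10, 0.00926), a call lost without Flt3-L array 2 of 11 d (adjusted p = 0.0562). Without Flt3-L array 3 the rises of Il2rb (0.24, adjusted p = 0.0677) and Klrk1 (0.37, 0.0896) were not called, while Ncr1 (0.50), Gzmb (0.54) and Cd28 (0.71) still were. Over the alternatives adjusted p reached 0.0729 for Il2rb and 0.123 for Klrk1.

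**Figure D3:**
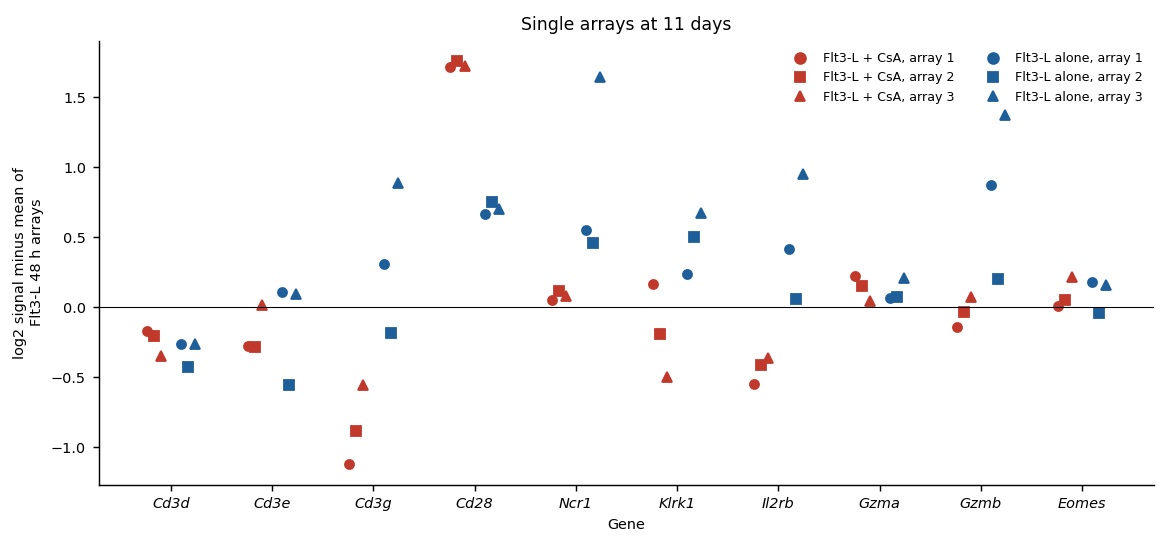
Each array of 11 d as log2 signal minus the mean of the Flt3-L arrays of 48 h, by gene, with CsA arrays left of Flt3-L arrays. Flt3-L array 3 (triangle) is the highest of the 6 arrays for Ncr1, Cd3g, Il2rb, Gzmb and Klrk1, and both groups coincide for Eomes and Gzma.

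For the members not yet given without Flt3-L array 3, no call at 11 d differed. Against unstimulated marrow the changes without it were -1.01 for Cd3d, -1.33 for Cd3e, 3.33 for Cd28, -1.30 for Gzma and -1.18 for Eomes, all called, and 0.13 for Klrk1, not called. With CsA against Flt3-L alone they were 1.03 for Cd28, called, and 0.10 for Cd3d, 0.04 for Cd3e, 0.07 for Gzma and 0.025 for Eomes, not called. At 11 d against 48 h Cd3d was at -0.35 without it (adjusted p = 0.0140).

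The effect of CsA at 11 d was tested against the mean of its 3 earlier effects. This difference was called for 6 of 10 genes, 1 higher and 5 lower, beside 11.9% of all genes (5.21% higher, 6.70% lower). It was 0.65 for Cd28, -1.09 for Cd3g, -0.99 for Il2rb, -0.93 for Gzmb, -0.86 for Ncr1 and -0.76 for Klrk1. Without Flt3-L array 3 these became 0.65, -0.81, -0.75, -0.65, -0.48 and -0.65, and all 6 were still called. The other 4 genes had intervals of -0.0038 to 0.46 (Cd3d), -0.25 to 0.37 (Cd3e), -0.21 to 0.19 (Gzma) and -0.21 to 0.28 (Eomes).

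Genes of the same pathways were read beside the 10, in 7 lists that share no gene with them. With CsA at 11 d, NK cell receptors and adapters had 7 of 17 called lower and none higher, with a median change of -0.23, and cytotoxic granule and effector genes had 6 of 13 lower and none higher, with a median of -0.27. The median of all genes was 0.03, and 12.0% of all genes were called in this comparison (4.92% higher, 7.08% lower), the background for every list count with CsA at 11 d below. Among the receptors, Cd226 (DNAM-1, an adhesion and activating receptor) fell by 0.99, Sh2d1b1 (the adapter EAT-2) by 0.76, Cd244a (the receptor 2B4) by 0.75 and Slamf6 by 0.72. Without Flt3-L array 3, 6 of the 7 receptor genes were still called and Klrc1 was not (-0.39, adjusted p = 0.195). Cd226 was then at -0.90, Sh2d1b1 at -0.66, Cd244a at -0.80 and Slamf6 at -0.55, and the list's median was -0.19. Slamf6 was called lower with CsA at 24 h and 48 h too. At 48 h it read 268.7, 249.1 and 287.0 with CsA, against 401.7, 404.9 and 415.9 with Flt3-L alone.

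Nkg7, a granule membrane protein, fell most among the cytotoxic genes. It read 47.9, 48.0 and 53.0 with CsA at 11 d, against 138.9, 74.6 and 213.3 with Flt3-L alone, without overlap and again with array 3 highest (-1.39). Ccl5, a chemokine of cytotoxic cells, read 1389.6, 1083.5 and 1077.7 with CsA, against 2174.2, 2900.1 and 3238.9 with Flt3-L alone (-1.22). Tnfsf10, the death ligand TRAIL, was at -0.48 and granzyme C (Gzmc) at -0.43. Without array 3, Nkg7 was at -1.04, Ccl5 at -1.10 and Tnfsf10 at -0.41, and the list's median was -0.18. Of the 6 cytotoxic genes 5 were still called lower, Gzmc was not (-0.18, adjusted p = 0.390), and Ctsc was called higher (0.30, 0.00969). Perforin (Prf1), the pore protein that granzymes need, read 90.7, 94.2 and 104.3 with CsA, against 100.0, 97.9 and 85.8 with Flt3-L alone, and was not called. It is given here after its values were seen.

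Receptors for T and NK cell cytokines moved in both directions. Of 12 measured genes of the IL-2 and IL-15 system, 4 were lower and 1 higher with CsA at 11 d (median -0.18), and the same 5 were called without array 3 (median -0.12). Il21r, the IL-21 receptor, fell by 1.19, and Il2ra, the IL-2 receptor alpha chain and a known NFAT target in T cells, by 0.67. Stat4, which carries IL-12 signals, read 234.8, 188.3 and 145.6 with CsA, against 267.6, 427.7 and 451.1 with Flt3-L alone, without overlap (adjusted p = 3.73e-05). Il12rb2 rose by 0.51. Without array 3 Il21r was at -1.05, Il2ra at -0.56, Stat4 at -0.86 and Il12rb2 at 0.57. Il2ra was already lower at 24 h (-0.85 ± 0.12, adjusted p = 5.59e-05) and 48 h (-1.13 ± 0.12, 9.19e-07). At 48 h it read 155.4, 166.8 and 168.5 with CsA, against 350.5, 365.8 and 360.3 with Flt3-L alone and without overlap. Il2rb, the beta chain, was not called at that time, a difference between the genes that was not tested.

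The T cell lists were mixed. Of 11 T cell receptor signalling genes, 2 were lower and 1 higher with CsA at 11 d (median -0.09): the adapter Lat fell by 0.96, the Ras activator Rasgrp1 fell by 0.66 and the adapter Lcp2 rose by 0.40. Rasgrp1 was also lower at 24 h (-0.67) and 48 h (-0.90). Of 14 T cell surface proteins, 2 were higher and 2 lower (median -0.10). Ccr7, a homing receptor, fell by 1.04 and Cd2, an adhesion receptor, by 0.37, while Cd4 rose by 0.78 and the egress receptor S1pr1 by 0.48. Of 12 T and NK transcription factors, 2 were lower, Runx3 (-0.53) and Ets1 (-0.39), with a median of -0.04. Of 4 measured ligands of CD28 and NKG2D, the NKG2D ligand H60b was higher (0.84) and the CD28 ligand Cd86 lower (-0.31), and the call on Cd86 was lost without array 3 (-0.27, adjusted p = 0.149). Without array 3 the T cell counts stayed the same apart from the kinase adapter Skap1, which was then called higher (0.24, adjusted p = 0.0454). The changes were then -0.87 for Lat, -0.57 for Rasgrp1, 0.45 for Lcp2, -0.87 for Ccr7, -0.37 for Cd2, 0.87 for Cd4, 0.46 for S1pr1, -0.50 for Runx3, -0.37 for Ets1 and 0.93 for H60b. The medians were -0.09 for signalling genes, -0.04 for surface proteins, -0.0041 for transcription factors and -0.11 for ligands.

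At the earlier times 6.73% of all genes were called with CsA at 12 h (2.82% higher, 3.91% lower). It was 3.78% at 24 h (1.60% higher, 2.19% lower) and 4.51% at 48 h (2.17% higher, 2.35% lower). Of all 83 genes on the 7 lists, those called at 12 h were Cd247, Cd6, Prdm1, Zeb2 and Cd86, all lower and none by more than 0.35. Their share at 12 h is near that of all genes, so that count is no result about the lists. At 24 h, 2 of 11 T cell receptor signalling genes (Rasgrp1, Prkcq) were called lower. So were 2 of 17 NK receptors and adapters (Slamf6, Sh2d2a) and 2 of 12 IL-2 and IL-15 genes (Il2ra, Jak1). At 48 h the same lists had 2 (Rasgrp1, Prkcq), 1 (Slamf6) and 2 (Il2ra, Il15) lower. T cell surface proteins then had 1 higher and 1 lower of 14, and transcription factors 1 higher and 2 lower of 12. No other gene of the lists was called at 24 h or 48 h, and these counts were not tested against all genes. None of the 13 cytotoxic genes was called at 12 h, 24 h or 48 h, which beside the low shares of all genes is no result about that list.

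More genes of the lists were called in Flt3-L culture against unstimulated marrow, where 51.9% of all genes were called at 11 d (27.2% higher, 24.8% lower; median 0.02). At 11 d against unstimulated marrow, T cell receptor signalling genes had 9 lower and 2 higher of 11 (median -0.40), T cell surface proteins 8 lower and 4 higher of 14 (-0.31), and transcription factors 9 lower and 3 higher of 12 (-0.55). NK receptors and adapters had 10 lower and 4 higher of 17 (-0.40), the IL-2 and IL-15 system 6 lower and 2 higher of 12 (-0.12), and cytotoxic genes 8 lower and 2 higher of 13 (-0.54). The share of the IL-2 and IL-15 system called, 8 of 12, is near that of all genes and is no result about that list. Nkg7 was 21.1-fold lower, Ets1 7.63-fold, Il18rap (an IL-18 receptor chain) 8.30-fold and Cd2 7.93-fold. The largest falls among signalling genes were Rasgrp1 (-2.57), Prkcq (-2.53) and Ubash3a (-2.52), and among NK receptors Slamf6 (-2.54) and Klrc1 (-2.11). In the opposite direction, Prdm1 (Blimp-1) rose by 2.28, Il7r, the IL-7 receptor, by 2.13, Ccl5 by 1.32 and Lat by 1.06. All 4 measured ligands rose, Raet1d 6.21-fold, Cd86 2.48-fold, Cd80 1.82-fold and H60b 1.34-fold. Cd28 and both its ligands Cd80 and Cd86 were thus called higher at 11 d. Without Flt3-L array 3, H60b (0.34, adjusted p = 0.0989), Klrg1, Fasl and Gzmc were no longer called at 11 d, and the other calls on the 7 lists were kept. Nkg7 was then at -4.76, Ets1 at -2.95, Il18rap at -3.10, Cd2 at -2.99, Prdm1 at 2.20, Il7r at 2.12, Ccl5 at 1.20, Lat at 0.97, Raet1d at 2.63, Cd86 at 1.26 and Cd80 at 0.85.

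Within the first 12 h 36.0% of all genes were called (17.8% higher, 18.1% lower). The NK receptor list had 5 lower and 3 higher of 17 and the T cell surface list 4 lower and 3 higher of 14, both near that background, so their counts are no result about the lists. Klrb1c (NK1.1) was at -1.25, Cd226 at -0.77 and Klrc1 (NKG2A) at -0.76, while Klrd1 (CD94), the partner chain of NKG2A, rose by 1.11. Among cytotoxic genes, 7 of 13 were lower at 12 h and 1 higher: Nkg7 fell by 1.20, the chemokine Xcl1 by 1.01, and Ctsw and Prf1 by 0.47 each. On the T cell surface list Thy1 was at -0.77 and Cd4 at -0.66, beside Il7r at 0.86 and Icos at 0.40.

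**Figure D4:**
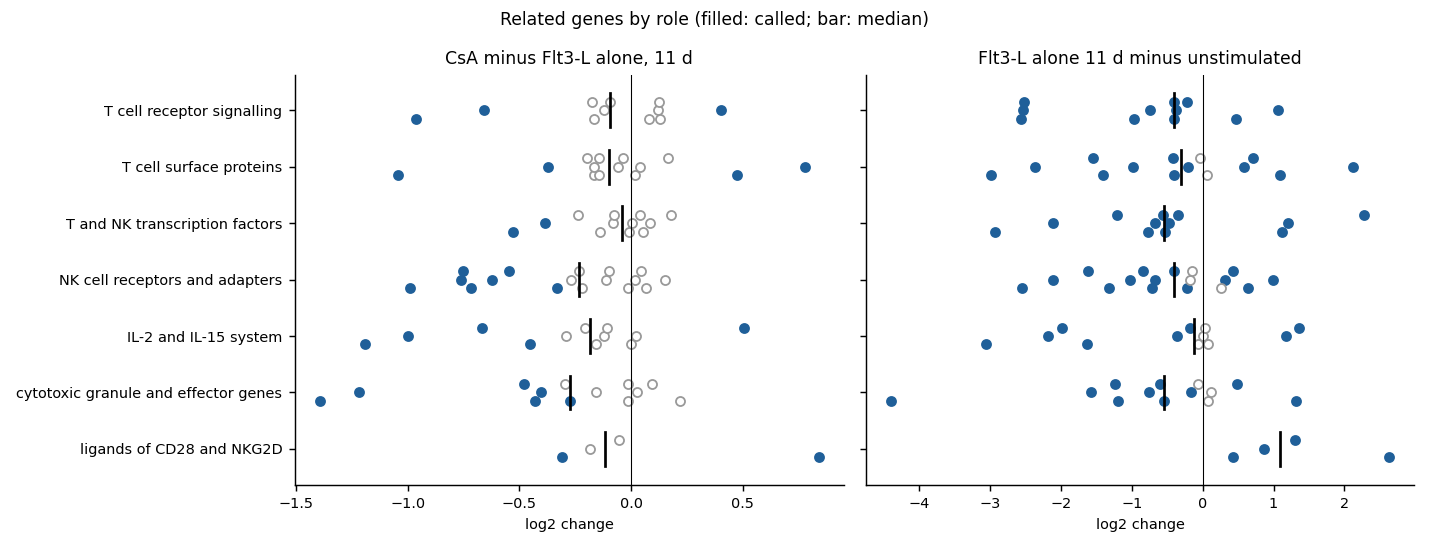
Log2 change of each gene on the 7 lists, with CsA against Flt3-L alone at 11 d on the left and with Flt3-L at 11 d against unstimulated marrow on the right, filled where called, with a bar at the list's median. On the left the filled points of the NK and cytotoxic lists all lie below 0, and on the right the filled ligands all lie above it.

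Markers of other cells in the cultures moved as well, and their part in the results above was not tested. At 11 d the summed signal of 9 measured B lineage markers was 1201, 1084 and 1131 with CsA, against 2610, 2389 and 2912 with Flt3-L alone, and 7 of the 9 were called lower. That of 10 NK cell markers was 659, 640 and 614 with CsA, against 788, 875 and 944 with Flt3-L alone, with 5 of 10 lower. That of 10 T cell markers was 1524, 1669 and 1703 with CsA, against 1724, 1550 and 1906 with Flt3-L alone, which overlap, with 2 lower and 1 higher. This sum mixes opposite moves. Cd4 rose (578.8, 622.6 and 657.7 with CsA, against 347.6, 330.3 and 408.4 with Flt3-L alone). Lat fell (250.2, 334.5 and 280.9, against 528.8, 520.7 and 634.7), as did Cd3g. The NK and T cell lists hold several of the 10 genes and are not independent of them. Mast cell and basophil markers had 3 of 9 lower (sums of 514 to 578 with CsA against 567 to 649 with Flt3-L alone), plasmacytoid dendritic cell markers 4 lower and 3 higher of 8 (3253 to 3583 against 3263 to 3521), and type 2 innate lymphoid markers 1 higher of 7 (734 to 742 against 660 to 732). Without Flt3-L array 3 the counts were 6 lower for B lineage, 2 for mast cell and basophil and 0 for innate lymphoid markers, and those of the NK, T and plasmacytoid lists stayed as they were. Some markers were called before 11 d. With CsA at 24 h, 4 of 9 mast cell and basophil and 3 of 9 B lineage markers were lower. At 48 h it was 6 of 9 on each list, beside 4.51% of all genes. Mast cell and basophil sums at 48 h were 1987 to 2232, against 2993 to 3188 with Flt3-L alone. B lineage sums were 7300 to 8872, against 10589 to 11891. Plasmacytoid markers had 2 of 8 lower at 48 h, and the NK, T and innate lymphoid lists had no calls at 24 h or 48 h. No marker was at 0, since the normalized signals have no 0.

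Over culture, NK cell markers summed to 1518 to 1577 in unstimulated marrow, 1160 to 1246 with Flt3-L at 12 h, 841 to 916 at 24 h, 882 to 959 at 48 h and 788 to 944 at 11 d. T cell markers summed to 1946 to 2096, 1622 to 1737, 1511 to 1577, 1456 to 1543 and 1550 to 1906 at the same points. Bright markers that rose weigh on both sums. Klrd1 read 190.1 to 219.6 in unstimulated marrow and 404.4 to 465.5 at 48 h. At that time 7 of the 10 NK markers were called lower and 1 higher, beside 37.1% of all genes (18.5% higher, 18.6% lower). The NK sum thus understates the fall of most of its markers. Cd4 read 231.5 to 244.7 in unstimulated marrow and 330.3 to 408.4 at 11 d. Mast cell and basophil markers fell furthest, to 567 to 649 with Flt3-L at 11 d, against 5734 to 6446 in unstimulated marrow, and B lineage markers were 2389 to 2912 at 11 d, against 12936 to 13861.

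Over the 27 arrays the genes most like each other and most like other genes were listed as a description, since all points share time in culture. Among the 10, Cd3g and Il2rb were most alike (Pearson r = 0.956), then Gzma and Eomes (0.931). Cd28 ran against Cd3g (-0.928), Cd3e (-0.918) and Il2rb (-0.909), and Klrk1 was close to none, 0.422 or less with each of the others. Out of 7896 genes whose group means spanned at least 0.5 log2, those most like Cd28 were Atp6v1c1 (0.988), Raph1 (0.987) and Grn (0.986). Those most like Il2rb were Klrc1 (0.978), Plpp1 (0.975) and Txk (0.962), and those most like Cd3g were Gimap4 (0.963), Il2rb (0.956) and Jchain (0.953). For Ncr1 they were Igfbp7 (0.944), Sparc (0.937) and Dkkl1 (0.935), for Gzma Myh10 (0.971), Abcg4 (0.971) and Tfr2 (0.962), and for Eomes Nrip3 (0.960), Cpox (0.953) and Gpsm2 (0.952). Cd3d was most like H2az2 (0.941), Narf (0.940) and Tmx4 (0.939), and Cd3e most like Cdc25b (0.940), Uba7 (0.938) and Urod (0.932). Gzmb was most like Slc22a4 (0.893), Il2rb (0.887) and Ncoa7 (0.884). Klrk1 had the lowest likeness to any gene, 0.753 with Phf11c, 0.698 with Klri2 and 0.685 with Rasgrp3.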

How the data were processed

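Total RNA was measured on 27 one-colour Affymetrix arrays, 3 in each of 9 groups. Per the labels' protocols, RNA was extracted with Trizol and biotin-labelled after preparation with the WT Expression Kit. The deposited intensity values were summarised and normalized by the authors with RMA, per the submitters' processing notes, on a linear scale. Log2 was taken here. Of 28815 probe sets, 21780 had a single gene symbol, 1605 had several and were left out, and 5430 were not named. The annotation can be old. Gene positions and promoters came from RefSeq tables (GRCm38.p6).

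A limma model of group means (limma 3.58.1, R 4.3.3) was used here (empirical Bayes variances over all 27 arrays, Benjamini-Hochberg over 19935 genes), on code tested on simulated data. Further steps ran in Python 3.11.15 with pandas 2.3.3 and numpy 2.4.6, and figures were drawn by matplotlib 3.10.9. Alternatives were other variance models, array weights, a filter on the dimmest genes, 2 other scalings, only the groups compared, the mean of probe sets, the replicate number as a block, and each array left out. Counts of the lists without Flt3-L array 3 of 11 d were added after seeing the data.

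The members, lists and tests were chosen with earlier results of these data known. Named were all 10 genes, from each list of related genes up to 4 called genes with the largest change in a comparison, and the 3 genes most like each member. Of 93 entries on the 7 lists 83 were measured, and of 59 marker entries 53, Cd244 by its present symbol Cd244a. The labels do not say that arrays of equal number share a preparation. Deviations of equal-numbered arrays from their group means correlated above 0.1 in every pair for CsA at 24 h (0.369, 0.346, 0.398) and 48 h (0.539, 0.178, 0.192) and for Flt3-L at 12 h (0.196, 0.144, 0.103) and 24 h (0.347, 0.126, 0.182), and not for the other 4 comparisons. Of the latter, CsA at 12 h just missed this (0.190, 0.188 and 0.098), with at most 0.016 for arrays of another number. In the 4 comparisons above 0.1 in every pair, the highest correlation with an array of another number was mostly lower. It was higher for CsA at 48 h in pairs 2 (0.216) and 3 (0.233), and close for Flt3-L at 24 h in pair 3 (0.174).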

Additional observations from a re-analysis of the deposited data

Results flagged for a closer look

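The effect of CsA (Flt3-L with CsA minus Flt3-L alone) at 11 d differed from the mean of its effects at 12 h, 24 h and 48 h for 6 of the 10 genes in a limma test of the difference itself, adjusted over all 19935 genes. Cd28, the costimulatory receptor, rose more at 11 d than before, by 0.65 log2 (adjusted p = 1.52e-06). The other 5 fell at 11 d relative to the earlier times: the CD3 gamma chain Cd3g at -1.09 (0.00119), the IL-2 and IL-15 receptor beta chain Il2rb at -0.99 (5.28e-05), granzyme B (Gzmb) at -0.93 (0.00175), the NKp46 gene Ncr1 at -0.86 (0.00445) and the NKG2D gene Klrk1 at -0.76 (0.00485). All 3 CsA arrays of 11 d lay below all 3 Flt3-L arrays of 11 d for these 5 genes, and above them for Cd28. Flt3-L array 3 of 11 d, the highest for the 5 falling genes, took part in all of these differences, and its part in their size is given by the values without it in the results. Over the alternatives tried none of the 6 calls was lost, the highest adjusted p being 0.0371, for Klrk1. None of them used the spread of the 11 d arrays alone, since this difference draws on all cultured groups. With only the 11 d groups in the fit, the CsA calls at 11 d on Ncr1 (limma, adjusted p = 0.0993) and Gzmb (0.0607) were lost.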

How the results depend on the processing

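No call of the 10 genes reversed under any alternative. Over the alternatives, results of single genes kept their call or lack of one 2193 times, lost the call 39 times and gained one 13 times. Some uncalled changes switched sign among those kept, such as Cd3e with CsA at 11 d (-0.06, but 0.04 without Flt3-L array 3). Counts of called genes moved by more than 1.5 times as follows. For CsA at 12 h the count was 1, but 3 with array weights and 0 with only the groups compared. Leaving out the dimmest genes removes Cd3d, Ncr1, Gzma, Gzmb and Eomes from the test, so counts became 3, 5, 4 and 4 for Flt3-L at 12 h, 24 h, 48 h and 11 d, and 3 each for 24 h against 12 h and 11 d against 48 h. With each array left out in turn, counts ran from 0 to 1 for CsA at 12 h and 24 h, 1 to 1 at 48 h and 5 to 6 at 11 d. They ran from 6 to 6, 9 to 10, 9 to 9 and 8 to 9 for Flt3-L at 12 h, 24 h, 48 h and 11 d. For 24 h against 12 h they ran from 4 to 5 (4 without Flt3-L array 3 of 24 h), for 48 h against 24 h from 3 to 5 (3 without Flt3-L array 1 of 24 h or array 2 of 48 h) and for 11 d against 48 h from 4 to 6. They ran from 2 to 5 for the mean CsA effect (5 without Flt3-L array 2 of 11 d) and 6 to 6 for CsA at 11 d against earlier times. The cause was not tested. With the replicate number as a block the count for 24 h against 12 h was 6 in place of 7 (Cd3d, adjusted p = 0.0522), and the block changed no other call of the 10 genes. Over all genes, CsA at 12 h gave 1341 calls, but 177 with only the groups compared, 5301 with array weights and 2111 with the replicate block. CsA at 24 h gave 754 and 396 with only the groups compared, and at 48 h 900 and 451. With 1 array left out these totals fell to between 332 (without CsA array 2) and 664 at 12 h without any of 5 arrays (3221 without CsA array 3), 475 at 24 h (without Flt3-L array 1) and 586 at 48 h (without CsA array 1). The shares of all genes called that stand beside the 10 genes move with them.

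The files hold no background or detection measure, so how far low signals such as those of Gzma lie above background was not assessed. The p-values rest on the spread between the 3 arrays of a group, pooled for each gene over all groups. They do not measure the spread of the groups compared alone. With only the groups of 11 d in the fit, the CsA calls on Ncr1 (adjusted p = 0.0993) and Gzmb (0.0607) were lost. Those on Cd28, Cd3g, Il2rb and Klrk1 were kept. The separate origin of the arrays rests on the labels.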
